A study of Danio rerio with 5 samples.

Results

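The acidic chitinases of zebrafish, the chia genes, were followed in the upper digestive tract of zCdx1b transgenic and wild-type adults. The members were all probe sets whose single gene symbol in the platform annotation begins with chia., which gave 5 of the 8793 genes named on the array, each with 1 probe set: chia.1, chia.2, chia.3, chia.4 and chia.6. Of the 6 chia genes in the RefSeq table, chia.5 was not analysed here. The family was selected on the differences between the groups, since chia.1, chia.2 and chia.3 had been among the largest, so the differences of its members are a description, without a test.

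There were 3 transgenic arrays (genotype zCdx1b) and 2 wild-type arrays, and each array held RNA pooled from 3 animals that were 3 months old and of AB background. The transgene placed the zebrafish Cdx1b coding sequence with EGFP behind zK5p, a zebrafish keratin 5 promoter fragment, in a Tol2 vector injected at the 1-cell stage together with transposase RNA. Keratin 5 is a gene of stratified epithelium, so the transgenic group models Cdx1b under that promoter. Sources used here do not give the number of founders, the animals' sex or the limits of the dissected segment. Each value is the deposited log2 expression value of a probe set on 1 array. The p-values set a difference between groups against the spread between pools, not between single animals.

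Chitinases of this family cut chitin, a polymer of N-acetylglucosamine found in insect cuticle, crustacean shells and fungal walls, into short sugars. In mice the acidic chitinase is secreted into the stomach and the airways, where it digests dietary chitin and takes part in responses to inhaled chitin. Zebrafish have no stomach, and food passes straight into the intestine. The products of chitinase are taken apart further by glycosidases, and the freed amino sugar can enter sugar breakdown or be used again for UDP-N-acetylglucosamine, the donor for glycans.

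Each array had a mean of 4.89 over the probe sets, and the values spanned 2.23 to 13.58. A background bound was taken on each array as the highest reading among 44 bacterial and tag controls, and it ran from 3.72 to 3.95 in transgenic pools against 3.64 and 4.13 in wild-type pools. The labelled tissue was checked against markers. Of all probe sets, 71.0% were above the bound in wild-type pool 1 and 62.4% in wild-type pool 2. Squamous epithelium markers were above it on both wild-type arrays. On both of these arrays, 10 of 20 intestinal absorptive markers and 11 of 19 exocrine pancreas markers were at or below it. So were 16 of 22 hepatocyte markers, and many defining genes of these tissues thus gave no signal above background there. Exceptions included the lipid carrier gene fabp2, at 12.82, 12.76 and 12.62 in transgenic pools, against 7.52 and 6.03 in wild-type pools. The absorptive marker vil1, a brush border gene, read 9.54, 9.38 and 8.89 in transgenic pools, against 3.77 and 3.81 in wild-type pools. Its wild-type values were close to background: pool 1 was just above its bound of 3.64 and pool 2 was below its bound of 4.13.

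The 3 chitinases chia.1, chia.2 and chia.3 were high in every transgenic pool and at or below background in both wild-type pools. The gene chia.1 read 12.79, 12.66 and 12.55 in transgenic pools 1, 2 and 3, against 2.86 and 3.53 in wild-type pools 1 and 2. Its neighbour chia.2 read 12.24, 12.18 and 12.01 in the transgenic pools, against 3.01 and 3.49 in the wild-type pools. The third, chia.3, read 13.00, 12.93 and 12.84 in the transgenic pools, against 3.23 and 3.99 in the wild-type pools. No value of one group came near the other group for these genes, but their large differences had been known when the family was selected. In bulk tissue, more cells that make a transcript and more transcript per cell cannot be told apart.

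On the log2 scale the differences, transgenic minus wild type, were 9.47 for chia.1 (SE 0.26), 8.89 for chia.2 (SE 0.24) and 9.31 for chia.3 (SE 0.27). Because the wild-type values were at background, the folds are lower bounds, set against the mean of the bound on the wild-type arrays: at least 439-fold for chia.1, at least 306-fold for chia.2 and at least 525-fold for chia.3. The same background was used for each of these genes, so the order of the bounds is that of the transgenic values alone. No ranking of the changes is read from them, since the wild-type levels are not known. The transgenic values also lie close to the top of the range of all values.

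**Figure D1:**
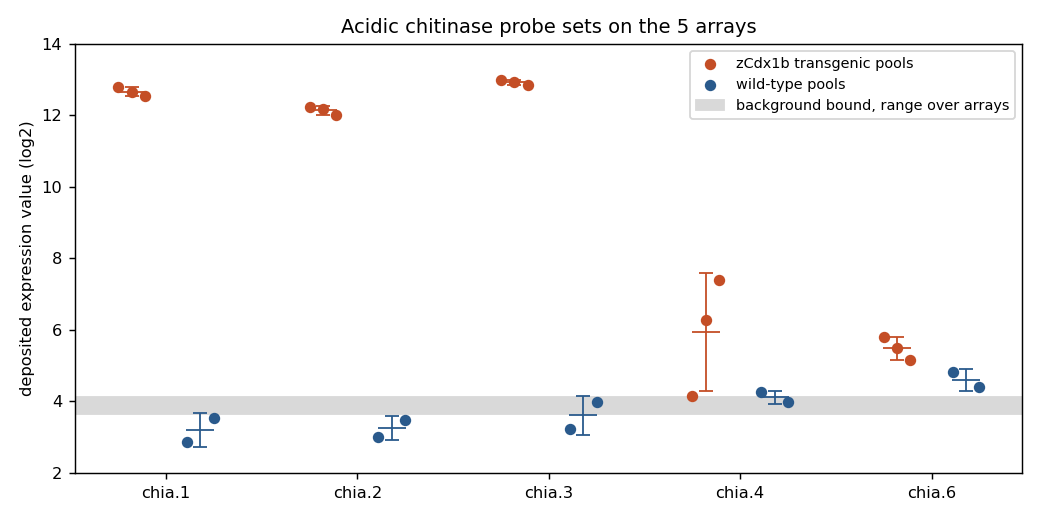
Deposited log2 expression values (y axis) of the 5 acidic chitinase probe sets (x axis), with transgenic pools left of wild-type pools for each gene. Points are pools, horizontal marks with bars are the mean and SD (n = 3 transgenic, n = 2 wild type), and the grey band spans the background bound over the arrays. The genes chia.1, chia.2 and chia.3 sit above 12 in all transgenic pools and at or below their array's bound in wild-type pools, chia.4 spreads from 4.14 to 7.41 over the transgenic pools, and chia.6 lies between 5.16 and 5.81 there.

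The SD over the transgenic pools was 0.12 for chia.1, 0.12 for chia.2 and 0.08 for chia.3, against a median SD of 0.18 over all 10335 probe sets tested. Other very bright probe sets had an SD as small, 0.05 for apoa1a and 0.06 for prss1, so no stability is read from these values near the top of the range. Pool 1 was the highest and pool 3 the lowest transgenic pool for all 3 genes, with ranges of 0.24, 0.23 and 0.16. In the wild-type pools the SD was larger, at 0.48 for chia.1, 0.34 for chia.2 and 0.54 for chia.3, but these values lay at background, and pool 2, which also had the higher bound, was the higher of the pair each time.

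Other members behaved differently. The gene chia.4 read 4.14, 6.28 and 7.41 in transgenic pools 1, 2 and 3, against 4.25 and 3.99 in the wild-type pools. Transgenic pool 1 thus lay within the wild-type range, while pools 2 and 3 lay above it, and the groups overlap. The value of wild-type pool 2 was below its bound of 4.13, and that of transgenic pool 1 was close above its bound of 3.95. The wild-type mean used below therefore lies near background. The difference was 1.82 (log2, SE 0.89), the SD over the transgenic pools was 1.66 and its rank among all probe sets tested was the 98.1 percentile. The value relative to the wild-type mean was 0.02 in pool 1, 2.16 in pool 2 and 3.28 in pool 3. Without transgenic pool 3 the difference was 1.09, and without transgenic pool 1 it was 2.72.

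For chia.6 the values were 5.81, 5.50 and 5.16 in the transgenic pools, against 4.82 and 4.39 in the wild-type pools. All 5 values were above the bound and the groups did not overlap, with a difference of 0.88 (log2, SE 0.27), or 1.84-fold. Transgenic pool 1 was again the highest and pool 3 the lowest, a range of 0.65. Of the 5 members, 4 were higher without overlap, as were 20.1% of all probe sets tested. The members were picked with this contrast known, so no more is read from that count.

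In RefSeq gene order on the zebrafish assembly GRCz12tu, the family lies in 2 places. At the first, chia.1, chia.2 and chia.3 follow one another with ovgp1, another gene of the chitinase family that was not analysed here, between chia.2 and chia.3. At the second, chia.4, chia.5 and chia.6 follow one another. The members with a large difference therefore all came from the first locus. The platform IDs of the 5 probe sets carry no mark for probes shared between transcripts, but probe sequences were not used here, so signal from a close relative at the same locus cannot be told apart from the gene's own.

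Genes beside the first locus showed no such difference. The nearest genes with a probe set were cntn2, pik3c2b and optc on one side and zc3h11a, maf1a and rem1 on the other, and their differences ran from -0.53 to 0.21. The zinc finger gene zc3h11a, next to chia.3, read 6.44, 6.56 and 6.49 in transgenic pools, against 6.81 and 6.75 in wild-type pools, a difference of -0.28 (limma adjusted p = 0.447). The contactin gene cntn2, next to chia.1, did not pass the filter on dim probe sets and differed by 0.03. Nor did optc and rem1 pass it, which lie 13 and 7 places from the cluster in gene order. These dim genes were at or below the bound in all transgenic pools and were not tested.

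At the second locus, the amidohydrolase-family gene pm20d1.1 rose by 3.61 (log2, SE 0.34, limma adjusted p = 0.00136), with 7.31, 6.85 and 6.34 in transgenic pools, against 2.97 and 3.47 in wild-type pools. As both wild-type values were at background, it was at least 7.7-fold higher. The LEM-domain gene lemd1 read 4.57, 5.51 and 6.87 in the transgenic pools, against 4.54 and 4.29 in the wild-type pools, and did not pass (difference 1.24, adjusted p = 0.231), although its highest pool was the same as for chia.4. Of the rest, naca, which encodes a subunit of a ribosome-associated complex, fell by 0.54 (adjusted p = 0.0246), but its adjusted p was 0.112 without transgenic pool 2, 0.069 without transgenic pool 3 and 0.0948 with eBayes fitted without a trend. The other neighbours, tfip11, LOC559664 and nucks1b, had differences of -0.18, 0.15 and -0.51 without a call, and LOC559664 did not pass the filter.

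**Figure D2:**
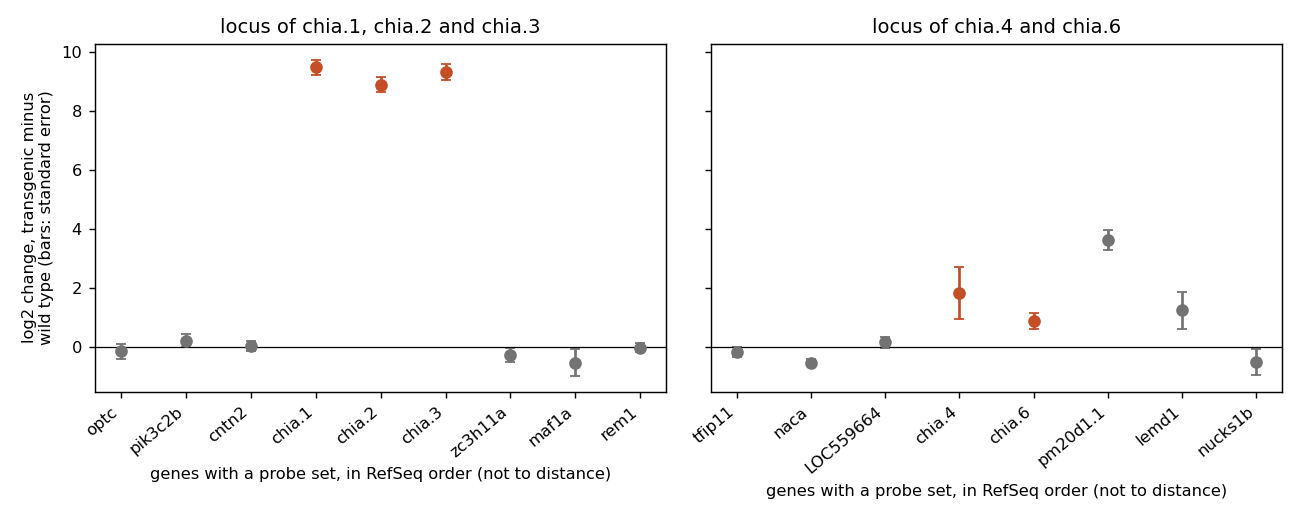
Log2 change (transgenic minus wild type, y axis, bars are standard errors from limma) of the chitinase genes (orange) and of the nearest genes with a probe set (grey), in RefSeq gene order and not to distance (x axis). At the left locus chia.1, chia.2 and chia.3 lie between 8.89 and 9.47 while the neighbours lie between -0.53 and 0.21, and at the right locus pm20d1.1 lies at 3.61.

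The genes nearest in pattern to the family were found as those whose 5 values, centred on their own mean, differed least from the mean centred chia values, by root mean square over the 5 arrays. Among 6474 genes these were plac8.1, cfhl4, cela1.1, sycn.2, muc13b, slc15a1b, ahsg1 and pla2g1b, with root mean square differences from 0.264 to 0.321 on the log2 scale. Averaging the members mixes large and small differences. Taken over chia.1, chia.2 and chia.3 alone, a choice made after their values were seen, the nearest were the lipase gene with the symbol cell, the galectin gene lgals2b, si:ch211-240l19.8, the elastase genes cela1.6 and ela3l, the apolipoprotein gene apoea, fabp1b.1 and the chymotrypsinogen gene ctrb.1, at 0.024 to 0.191. The gene cell read 12.66, 12.55 and 12.39 in transgenic pools, against 2.98 and 3.59 in wild-type pools. The nearest genes thus included pancreatic, intestinal and liver transcripts. Those nearest to chia.1, chia.2 and chia.3 were close to the top of the range in transgenic pools. Apart from cela1.6, they were at or below the bound in both wild-type pools. The measure finds genes with that contrast and says nothing of shared control.

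Markers of these tissues moved with chia.1, chia.2 and chia.3. All 18 exocrine pancreas markers tested and all 20 intestinal absorptive markers tested rose, and 21 of 22 hepatocyte markers did. Among all genes tested, 11.2% rose. The summed linear level of the pancreas markers was 72723 to 84588 in transgenic pools against 283 and 361 in wild-type pools. For the absorptive markers it was 46581 to 55733 against 667 and 599, and for the hepatocyte markers 29390 to 38126 against 1923 and 2189. Most of the wild-type hepatocyte sum came from rbp4, the marker of that list that did not rise. It read 10.79, 10.73 and 10.56 in transgenic pools, against 10.7 and 10.88 in wild-type pools. The medians over wild type were, in transgenic pools 1, 2 and 3, 7.91, 7.84 and 7.48 for the pancreas list, 5.93, 5.81 and 5.69 for the absorptive list and 5.90, 5.55 and 5.09 for the hepatocyte list. In each of these lists, as for chia.1, chia.2 and chia.3, pool 1 was the highest transgenic pool and pool 3 the lowest, and their part in the chitinase values was not tested. Against these, 23 of 24 squamous markers tested fell, as did 11.3% of all genes tested. The median over wild type of that list was -3.12, -1.98 and -1.68 in transgenic pools 1, 2 and 3.

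The nearest genes to chia.4 had another character. They were kpna7, zgc:153499, patl2, zgc:56231, pou5f3, nanog, zpcx and buc, with root mean square differences from 0.165 to 0.305. In zebrafish buc is needed for the Balbiani body of the oocyte, zpcx is an egg coat gene, and nanog and pou5f3 are supplied to the egg by the mother. The gene buc read 3.49, 5.96 and 7.58 in transgenic pools, against 4.34 and 3.98 in wild-type pools.

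Egg and oocyte genes as a list, assembled after chia.4 had been seen, showed the same pools as high. The list holds buc and zpcx, which were picked above for their likeness to chia.4, so their part of this result was fixed by that choice. The list's summed linear level over 19 genes was 291, 1649 and 4369 in transgenic pools 1, 2 and 3, against 662 and 621 in wild-type pools. Its median over wild type was -0.67, 1.24 and 2.73 in those transgenic pools. Not every gene followed: 3 of them, nobox, sycp1 and sycp3, were at or below the bound in all transgenic pools. The genes ddx4 and piwil2 also failed the filter on dim probe sets. In transgenic pool 2, bmp15 and dazl read 4.2 and 4.87, near their values of 4.17 and 4.64 in wild-type pool 2. They read 5.39 and 5.72 in transgenic pool 3. The gene piwil1 read 4.76, 4.76 and 5.04 in transgenic pools, against 3.92 and 4.77 in wild-type pools. Of 14 tested, 0 rose and 0 fell by limma's test, against 11.2% and 11.3% of all genes, and 0 of the 14 had an unadjusted p below 0.05. The zygote arrest gene zar1 read 3.57, 6.92 and 8.34 in transgenic pools, against 5.25 and 5.2 in wild-type pools. Thus zar1, like buc, was lower in transgenic pool 1 than in both wild-type pools, whereas chia.4 lay between them there. Readings of zar1 and buc in that transgenic pool were below the bound, as were those of buc and chia.4 in wild-type pool 2. The place of chia.4 between the wild-type pools therefore rests on values near background. This order of the transgenic pools was not particular to egg genes. Striated muscle markers had medians over wild type of -3.75, -1.76 and -0.95 in transgenic pools 1, 2 and 3. Of 22 tested, 0 rose and 2 fell, against 11.2% and 11.3% of all genes. Their member pvalb2, named after its values were seen, read 3.55, 4.71 and 10.35 in transgenic pools, against 3.63 and 4.54 in wild-type pools. It was not typical: its change of 2.12 was the highest of that list, whose median change was -2.25. By limma's test 13 of the 22 muscle markers were lower at an unadjusted p below 0.05. The part of egg or muscle transcripts in the chia.4 values was not tested.

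**Figure D3:**
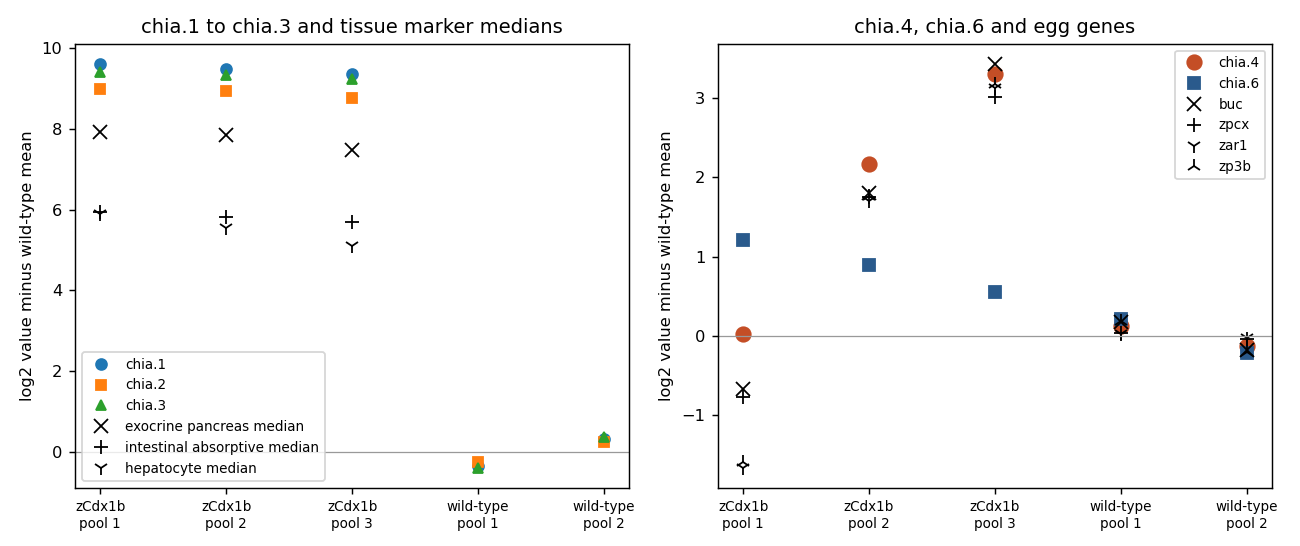
Log2 value minus the wild-type mean (y axis) on each of the 5 arrays (x axis), for chia.1, chia.2 and chia.3 with the medians of 3 tissue marker lists (left) and for chia.4 and chia.6 with egg genes (right). The left genes lie between 8.76 and 9.59 in all transgenic pools. The gene chia.4 lies at 0.02, 2.16 and 3.28 in transgenic pools 1, 2 and 3, and in pools 2 and 3 it is near the egg genes shown. Of these, buc and zpcx had been picked for likeness to chia.4, and zar1 and zp3b were named after their values were seen. Other genes of the egg list, such as piwil1, nobox and sycp1, did not follow and are not shown.

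Pattern neighbours of chia.6 were napepld, dpp7, nit1, tmem134, scrn3, hadhb, ctbs and hsd11b1la, at root mean square differences from 0.045 to 0.07. One of them, ctbs, encodes di-N-acetylchitobiase, the enzyme that splits the paired sugars left by chitinases and by glycan breakdown. It read 5.66, 5.43 and 5.17 in transgenic pools, against 4.65 and 4.31 in wild-type pools.

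Some genes of chitin and amino sugar handling, most of them not specific to chitin, also rose. Of 15 chitin and amino sugar genes tested, 6 rose and 1 fell, while 8 missed the threshold, and the median log2 change was -0.13. Among all genes tested, 11.2% rose and 11.3% fell, and the median change was -0.08. The list held 33 genes, of which 16 had a probe set, and the chitin synthase genes were not analysed here.

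On the breakdown side, gnpda1, whose enzyme turns glucosamine 6-phosphate into fructose 6-phosphate, rose by 3.70 (log2, SE 0.33, limma adjusted p = 0.00114). It read 8.57, 8.35 and 8.01 in transgenic pools, against 4.97 and 4.25 in wild-type pools, 13-fold apart. The deacetylase gene amdhd2, which acts one step earlier, rose by 1.4 (SE 0.19, adjusted p = 0.00547), with 5.68, 5.48 and 5.29 in transgenic pools against 4.08 and 4.08 in wild-type pools. The sialic acid lyase gene npl rose by 1.98 (SE 0.28, adjusted p = 0.00619). The chitobiase gene ctbs rose by 0.94 (SE 0.23, adjusted p = 0.0342), a call that was lost without any one of 4 pools: its adjusted p was 0.0763 without transgenic pool 1, 0.143 without transgenic pool 2, 0.0515 with wild-type pool 1 left out and 0.0894 with wild-type pool 2 left out. Without the filter on dim probe sets it was 0.051. The chitinase-domain gene chid1 had a change of 0.29 (adjusted p = 0.601), with overlapping groups.

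On the synthesis side, uap1, which makes UDP-N-acetylglucosamine in the last step, rose by 2.64 (SE 0.31, adjusted p = 0.00325), with 9.54, 9.22 and 8.93 in transgenic pools against 6.91 and 6.26 in wild-type pools. The mutase gene pgm3, one step before, rose by 1.1 (SE 0.22, adjusted p = 0.0185), and its adjusted p was 0.105 without transgenic pool 2. The uap1-like gene uap1l1 had a change of -0.73 without passing (adjusted p = 0.0904). The gene that fell was ogt.1, whose enzyme attaches the sugar to nuclear and cytoplasmic proteins. It changed by -1.18 (SE 0.23, adjusted p = 0.0182), and its adjusted p was 0.0508, 0.106 and 0.0576 without transgenic pools 1, 2 and 3. Leaving out wild-type pool 2 gave the list 5 rises and 6 falls, and leaving out transgenic pool 2 gave it 4 rises and 0 falls. The exocrine pancreas, absorptive and hepatocyte markers given above rose in the same pools as the 6 called genes that rose, while the list's median change was -0.13. The part of these markers in the list's values was not tested.

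**Figure D4:**
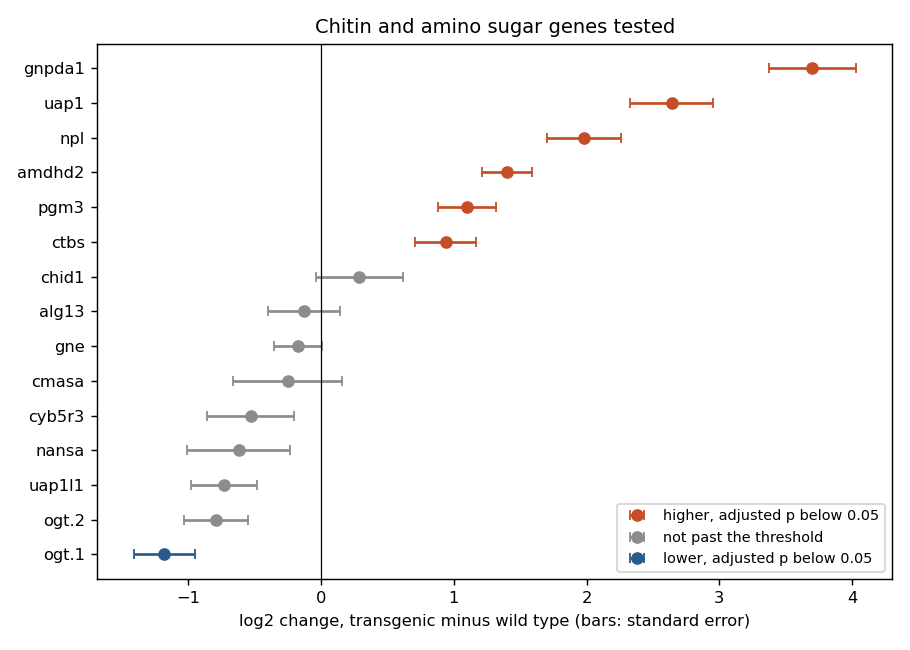
Log2 change (transgenic minus wild type, x axis, bars are standard errors from limma) of the 15 chitin and amino sugar genes tested (y axis), coloured by whether the Benjamini-Hochberg adjusted p was below 0.05. The 6 genes that rose lie between 0.94 and 3.70, and ogt.1 lies at -1.18.

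Digestive enzymes of the brush border, the membrane on which intestinal cells finish digestion, were read beside the chitinases. That list held 26 genes, of which 5 had a probe set. Of 5 tested, 4 rose and 1 fell, against 11.2% and 11.3% of all genes, with a median change of 4.65. The absorptive, pancreas and hepatocyte markers rose in the same pools, and their part was not tested. The meprin gene mep1a.1 rose by 5.66 (SE 0.29, limma adjusted p = 0.000137), with 10.24, 9.97 and 9.57 in transgenic pools against 4.16 and 4.36 in wild-type pools. The peptidase gene ace rose by 4.81 (SE 0.30, adjusted p = 0.000305). The sucrase gene si and the alkaline phosphatase gene alpi.2 were at background in both wild-type pools and at least 16.8-fold and 7.78-fold higher in transgenic pools (adjusted p = 0.000444 and 0.00202). The member that fell, named after its value was seen, was alpi.1, at -1.41 (adjusted p = 0.00409).

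Lysosomal hydrolases, acid enzymes that work inside cells, were mostly below the threshold. Their list held 28 genes, of which 12 had a probe set. Of 9 tested, 2 rose and 0 fell, against 11.2% and 11.3% of all genes, and the median change was 0.24. The tissue markers moved beside them as given above. The protective protein gene ctsa rose by 2.04 (SE 0.25, limma adjusted p = 0.00378) and the mannosidase gene man2b1 by 1.39 (SE 0.26, adjusted p = 0.0145). Without transgenic pool 2 the adjusted p of man2b1 was 0.107. The cofactor gene psap read 9.98, 9.88 and 9.72 in transgenic pools, against 9.75 and 9.51 in wild-type pools, and did not pass (adjusted p = 0.399).

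Chitinase expression accompanies type 2 immune responses in mice, so genes of that response and of luminal defence were read beside the family. The type 2 immunity list held 18 genes, of which only 4 had a probe set, so most of that list was not analysed here. Of these 4 genes, all tested, 0 rose and 0 fell by limma's test, against 11.2% and 11.3% of all genes. The 4 changes ran from -2.36 to -0.53, and 3 of the genes were lower at an unadjusted p below 0.05. The arginase gene arg2 came nearest (change -1.26, limma adjusted p = 0.0502). The lysozyme gene lyz, whose enzyme cuts bacterial walls, read 5.86, 7.22 and 9.24 in transgenic pools, against 10.62 and 8.42 in wild-type pools, a change of -2.08 that did not pass (adjusted p = 0.236). The luminal defence list held 25 genes, of which 5 had a probe set. Of 3 luminal defence genes tested, 0 rose and 1 fell, against 11.2% and 11.3% of all genes. It was the acute phase gene saa (-3.93, adjusted p = 0.0315), whose adjusted p was 0.139 when wild-type pool 1 was left out and 0.0988 when wild-type pool 2 was, and 0.0603 with a robust trend. Of 11 leukocyte markers tested, 0 rose and 4 fell, against the same shares, and the median change was -0.76. Transgenic pool 1 was the lowest pool for saa (4.34, 7.32 and 7.29 in transgenic pools, against 10.53 and 9.96 in wild-type pools), for gata3 and for ptgdsb.1. It was also the lowest for the squamous list, with the medians given above, and for the mucin gene muc5.1, named after its values were seen. That gene read 4.83, 8.4 and 8.04 in transgenic pools, against 10.32 and 9.91 in wild-type pools. Of 8 goblet and mucus markers tested, 1 rose and 2 fell, against 11.2% and 11.3% of all genes. The mucin gene that rose, muc13b, was highest in transgenic pool 1, at 9.92, 9.77 and 9.57 in transgenic pools against 3.14 and 3.99 in wild-type pools. The part of these other cell types in the immune and defence values was not tested.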

How the data were processed

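Per the labels' protocols, TRIzol was used to extract RNA, and biotinylated cRNA was made by in vitro transcription. The values are log2 expression values as deposited by the authors, 1 per probe set and array, and the submitters' processing notes name MAS5. The sources used here give no version, scaling target or log step, and base 2 was taken from the values. No detection calls were used. Probe sets were named by GEO's platform annotation, updated through Entrez identifiers against RefSeq (GRCz12tu). Of 15502 probe sets, 10795 had 1 symbol, 135 several and 4572 none, and 115 control probe sets were left out.

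A probe set was kept if at least 2 arrays had it at or above their own 40th percentile (10335), which all 5 members passed. Groups were compared with limma 3.58.1 in R 4.3.3 (lmFit and eBayes with a trend, no covariate, two-sided, Benjamini-Hochberg over all 10335, threshold 0.05), tested on simulated data. A gene was represented by its brightest kept probe set, giving 6479 genes. Summed linear levels are sums of 2 to the power of the value. Folds are differences of group means, or lower bounds against background. The number of arrays limits the precision.

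Members and lists were chosen with earlier results of these data known. Named genes were the members, every called chitin and amino sugar gene, up to 4 called genes of each other pathway list, the 8 genes nearest in pattern and 3 neighbours on each side of a locus. Other genes were named after their values were seen. The background bound, the egg list and the patterns of single members were added after the data were seen. Alternatives were quantile normalization, median centring, no filter or one at the 60th percentile, an untrended or robust eBayes, blocking on the replicate number, averaging the probe sets of a gene, and each pool left out in turn.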

Additional observations from a re-analysis of the deposited data

How the results depend on the processing

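The differences of the 5 chitinases kept their sign under quantile normalization, median centring, the replicate block and with each pool left out. Leaving out pools gave 9.14 to 9.81 for chia.1, 8.65 to 9.14 for chia.2, 8.93 to 9.7 for chia.3, 1.09 to 2.72 for chia.4 and 0.67 to 1.1 for chia.6. With wild type set at the bound, chia.1 became 8.78 and chia.2 8.26. The replicate numbers are shared by 2 pairs of pools, and deviations of same-numbered pools correlated at -0.25 and -0.13. With 2 wild-type pools the deviations of one mirror those of the other, so these correlations cannot decide whether the pools were paired. The main comparison used no pairs. No wild-type pool shares the replicate number of transgenic pool 3, so the replicate block fits that pool exactly. Its differences are those found without transgenic pool 3, and it is no separate check of them. With the block, chia.4 was thus 1.09, and 1866 probe sets were called against 2250. By that fit 6 chitin and amino sugar genes (all higher), 1 lysosomal hydrolase, 2 luminal defence genes and 2 type 2 immunity genes passed. The block ended the calls of ogt.1, naca, man2b1 and scrn3 (adjusted p = 0.144, 0.0674, 0.0666 and 0.0553). Leaving out a pool gave 979 to 2614 called probe sets, with 633 higher and 346 lower at the lowest count (without transgenic pool 2), and 4 to 11 called chitin and amino sugar genes, 1 to 3 lysosomal hydrolases, 0 to 1 luminal defence genes and 0 to 1 type 2 immunity genes. Where 1 wild-type pool was left, it was assumed to vary like the other group. Luminal defence had 0 calls with a robust trend. Type 2 immunity had 2 calls after quantile normalization and 1 with the 60th percentile filter, without a trend, with a robust trend and with the probe sets of a gene averaged. The causes were not tested. Of 37 called genes named outside the family and refitted under these alternatives, 29 kept their call in each one run, and none of the 37 turned direction. The others were ogt.1, pgm3, ctbs, man2b1, saa, naca, nit1 and scrn3. Levels at the background bound limit what can be said of chia.1, chia.2 and chia.3 in wild type.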
